A study of Caenorhabditis elegans with 12 samples.

Results

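Loss of a DNA glycosylase was compared with its presence in worms labelled as carrying aggregating tau, in 4 of the 12 RNA sequencing libraries of the series. The 4 libraries were chosen by their genotype and temperature labels alone. They are the tau aggregate strain BR5270 at 22 °C, ung-1 mutants crossed with that strain at 22 °C, the tau aggregate strain at 20 °C, and nth-1 mutants crossed with that strain at 20 °C. Each library came from the total RNA of about 5000 whole Caenorhabditis elegans at day 1 of adulthood, grown on 3 plates. The other 8 libraries, read here beside them, were wild type (N2) at both temperatures, ung-1 at 22 °C, nth-1 at 20 °C, the anti-aggregate tau strain BR5271 at both temperatures, and that strain crossed with ung-1 at 22 °C and with nth-1 at 20 °C. By their labels all 4 compared libraries carry the aggregating human tau transgene, which is expressed in neurons, whereas RNA was taken from the whole animal. The transgene's own RNA was not analysed here, since the counts are of worm genes, so its presence in each library rests on the label.

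Each genotype and temperature had 1 library, so no value below has a replicate of its own. The 2 pairs differ in mutated gene, temperature and set of libraries at once, which cannot be told apart. Within each pair a cross was set against the strain not crossed, so loss of the glycosylase and crossing cannot be told apart. Below, loss stands for the cross against that strain. For the 3 nth-1 libraries the titles name ung-1 and the genotype label names nth-1. The genotype label was used. The level of the mutated gene bears on the labels. The ung-1 gene stood at 39.9 CPM (read counts scaled to library size, here after TMM scaling) in tau aggregate worms and at 14.5 CPM in the ung-1 cross. At 20 °C ung-1 stood at 37.7 CPM in tau aggregate worms and at 28 CPM in the nth-1 cross. Without tau it was 62.1 CPM in wild type and 27 CPM in nth-1 at 20 °C. With anti-aggregate tau it was 62.3 CPM and, in the library labelled as the nth-1 cross, 49.6 CPM. It was thus also lower in the libraries labelled nth-1. The nth-1 gene stood at 23 CPM in tau aggregate worms at 20 °C and at 5.08 CPM in the nth-1 cross, and at 29.8 and 25 CPM in the pair of 22 °C. In the library labelled as the nth-1 cross with anti-aggregate tau it stood at 11.3 CPM. The 2 tau aggregate libraries stood apart from the other 10. Their TMM scaling factors were 1.146 and 1.121 against 0.939 to 1.024, and annotated pseudogenes took 1.322% and 1.12% of their counts against 0.338% to 0.472%. The deposited counts summed to 19791392 and 21953573 in the pair of 22 °C and to 15124127 and 16393122 in the pair of 20 °C. In bulk RNA of whole worms, fewer cells of a type and less RNA per cell cannot be told apart.

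UNG-1 removes uracil from DNA and NTH-1 removes oxidised pyrimidines, and both thereby start base excision repair. Tau is a microtubule-binding protein of neurons that forms aggregates in several human neurodegenerative diseases. Nonsense-mediated decay is the pathway that degrades mRNAs with early stop codons, and transcripts of pseudogenes and certain alternatively spliced forms of ribosomal and splicing-factor genes are among its known substrates in worms.

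The 2 pairs shared a set of falls and differed in most other large ratios. A log2 ratio was taken for each pair, as ung-1 with tau aggregate over tau aggregate at 22 °C (the ung-1 pair) and nth-1 with tau aggregate over tau aggregate at 20 °C (the nth-1 pair). Among the 9507 genes whose mean over the 4 libraries reached 5 CPM, 455 (4.79%) lay past 2-fold in the same direction in both pairs and 786 (8.27%) lay past 2-fold in opposite directions. Of the first, 410 (4.31%) were lower and 45 (0.473%) were higher with either loss. Of the second, 742 (7.80%) were lower in the ung-1 pair and higher in the nth-1 pair, and 44 (0.463%) went the other way. A further 649 genes passed 2-fold in the ung-1 pair alone and 893 in the nth-1 pair alone. The pairs share no library, and across the 9507 genes their ratios had a Pearson r of -0.26 and a Spearman rho of -0.15, with genes not being independent replicates. Ratios had opposite signs in 56.4% of the 15245 genes tested and in 55.6% of the 9507. These counts describe single libraries and carry no test.

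**Figure D1:**
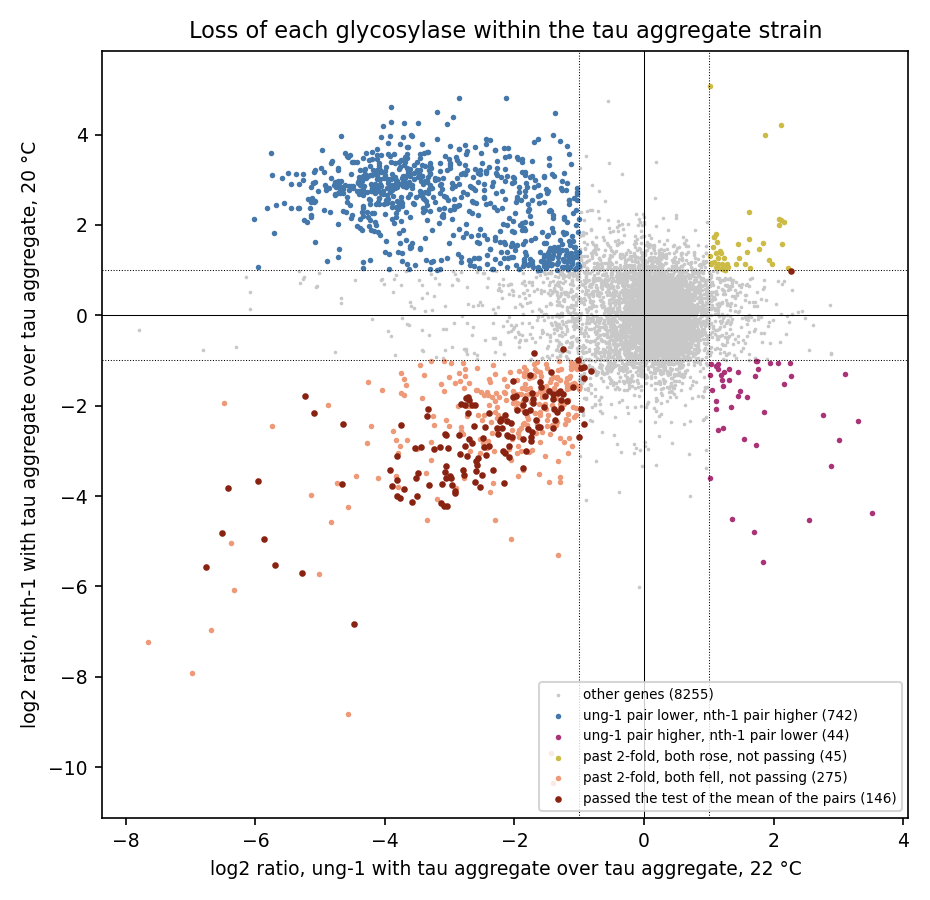
Log2 ratio of the ung-1 pair (horizontal axis) against that of the nth-1 pair (vertical axis), 1 point per gene for 9507 genes, with dotted lines at 2-fold. The lower left holds 410 genes past 2-fold that were lower with both losses, with the genes that passed the test in dark red, and the upper left holds 742 genes that were lower in the ung-1 pair and higher in the nth-1 pair.

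The mean of the 2 pairs was tested in 1 fit of all 12 libraries. The spread is what background, tau state and loss by tau state leave over, on 4 residual degrees of freedom. In this test 149 genes (0.977%) fell and 1 gene (0.00656%) rose of 15245 tested (edgeR quasi-likelihood test, adjusted p under 0.05 by Benjamini-Hochberg), with 1580 (10.4%) at an unadjusted p under 0.05. All 150 had the same sign in both pairs, and all but 10 of the 149 that fell lay past 2-fold in both. This fit has no term for a difference between the pairs, so unlike ratios widen the spread and such genes are less likely to pass. The shared signs and the small gaps given below are thus in part set by the test. The 149 ran from -6.77 to -0.82 in the ung-1 pair (median -2.49) and from -6.82 to -0.74 in the nth-1 pair (median -2.65). The gap between a gene's pair ratios had a median of 0.57 on the log2 scale. In 148 of the 149 both tau aggregate libraries lay above all the other 10 libraries. The same losses without tau gave these genes a median log2 ratio of -0.10 for ung-1 and -0.57 for nth-1. Tau aggregate over wild type gave a median of 2.51 at 22 °C and 2.11 at 20 °C. For those 148 genes the high values thus lay in the tau aggregate libraries that by label carry both glycosylases and were not crossed. Whether the falls go with the loss or with the crossing was not tested. The call count rests on single libraries, since it was 0 without either mutant aggregate library, 2 when tau aggregate at 22 °C was left out, 1 when tau aggregate at 20 °C was left out, and 28 to 74 without ung-1, nth-1, either wild type or either anti-aggregate tau library on wild type. It rose to 478 when the ung-1 cross with anti-aggregate tau was left out and to 451 when the library labelled as the nth-1 cross with it was.

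The gene that rose was smg-3 (IV:6362395-6373093, minus strand), which encodes the worm UPF2, a core factor of nonsense-mediated decay. It stood at 31.9 CPM in tau aggregate and 154.1 CPM in the ung-1 cross at 22 °C, and at 48.0 CPM in tau aggregate and 94.9 CPM in the nth-1 cross at 20 °C. In the other 8 libraries it ran from 104.7 to 170.4 CPM, so the tau aggregate libraries were the 2 lowest of the 12. The mean log2 change was 1.64 (SE 0.19, edgeR quasi-likelihood adjusted p = 0.0148). It overlaps a gene on the opposite strand, and whether reads were counted by strand is not given in the sources used here. Of the other 8 measured decay factors none passed the test. The kinase gene smg-1 lay at -1.0 and -1.04 in the ung-1 and nth-1 pairs, and smg-2, which encodes the helicase UPF1, at 0.31 and 0.39.

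Among 6 listed genes whose spliced forms include decay substrates, tos-1 fell and the other 5 did not pass. The gene tos-1 (V:9338859-9344203, minus strand) has served in worms as a reporter of such splicing. Its level was 600.0 CPM in tau aggregate and 163.8 CPM in the ung-1 cross, and 664.8 CPM in tau aggregate and 99.8 CPM in the nth-1 cross. The other 8 libraries held 77.8 to 153.9 CPM. Its mean log2 change was -2.30 (SE 0.18, edgeR quasi-likelihood adjusted p = 0.00708). The ribosomal protein genes rpl-7A and rpl-12, also on that list, had negative ratios in both pairs, at -1.03 and -0.72 for rpl-7A and at -0.76 and -0.91 for rpl-12. Their edgeR quasi-likelihood adjusted p-values were 0.0541 and 0.0783.

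Most ribosomal protein genes lay on the other side of 0. Of 84 measured members 70 were positive in the ung-1 pair and 67 in the nth-1 pair, with medians of 0.28 and 0.29, beside -0.02 and 0.05 over all genes tested. Nearly all of them reached 5 CPM, and the genes at that level had medians of 0.18 and -0.03, with 64.6% positive in the ung-1 pair and 48.2% in the nth-1 pair. The ribosomal median of the ung-1 pair thus lay near that of expressed genes. Total-count scaling moved the medians of all genes to -0.30 and -0.13, and on that scaling the ribosomal medians were -0.01 and 0.10. One member, rpl-30 (I:10436254-10436888, plus strand), fell. It stood at 1622 CPM in tau aggregate and 821.7 CPM in the ung-1 cross, and at 1922 CPM in tau aggregate and 852.3 CPM in the nth-1 cross, with 685.1 to 1161 CPM in the other 8 libraries. Its mean log2 change was -1.08 (SE 0.16, edgeR quasi-likelihood adjusted p = 0.0322).

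Pseudogenes were frequent among the genes that fell. They were 48 of the 149 that passed (32.2%), against 4.15% of the genes tested, and 150 of the 410 past 2-fold in both pairs (36.6%). Of 2038 annotated pseudogenes 633 passed the filter on low counts, and 136 of those had 0 counts in at least 1 of the 4 libraries. Their tau aggregate over wild type medians were 2.18 and 2.03, so a pseudogene could pass through its tau aggregate level, and a negative median over the 633 is a description. Of the 633, 48 (7.58%) fell and none rose, and the median ratios were -2.05 in the ung-1 pair and -1.18 in the nth-1 pair. With genes of 0 counts in a library set to a floor of 3 counts these medians were -1.88 and -1.15. Summed over the pseudogenes, the level was 11482 CPM in tau aggregate at 22 °C and 4126 CPM in the ung-1 cross. At 20 °C the sum was 9944 CPM in tau aggregate and 4754 CPM in the nth-1 cross, and it ran from 3541 to 4378 CPM in the other 8 libraries. Pseudogenes can share reads with their parent genes, and how such reads were counted is not given in the sources used here. Among the 48 that passed, lips-16 (II:12610313-12612357, minus strand) had the largest fall of those with a name of their own. It is annotated as a pseudogene of the lipase family. It stood at 104.1 and 4.61 CPM in the ung-1 pair, tau aggregate first, and at 129.6 and 1.05 CPM in the nth-1 pair, with 1.49 to 5.75 CPM elsewhere. Its mean log2 change was -5.58 (SE 0.62, edgeR quasi-likelihood adjusted p = 0.0135).

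F-box, MATH and BATH genes encode large families of adapters of ubiquitin ligases, many of them near-identical copies whose single values are uncertain. Of 254 measured members 12 (4.72%) fell, beside 0.977% of all genes tested, and none rose. Of the 100 that reached a mean of 5 CPM, 32 (32.0%) were past 2-fold lower in both pairs, beside 4.31% of all such genes. None was lower in the ung-1 pair and higher in the nth-1 pair. The tau aggregate libraries count towards that mean, so a member can reach it through its level there, and the share is a description. The highest level among those that fell was that of fbxa-211 (V:18127519-18128888, plus strand). It stood at 123.6 CPM in tau aggregate and 12 CPM in the ung-1 cross, and at 131.1 CPM in tau aggregate and 9.67 CPM in the nth-1 cross, where the other 8 libraries held 9.09 to 15.4 CPM. The mean log2 change of fbxa-211 was -3.55 (SE 0.28, edgeR quasi-likelihood adjusted p = 0.00708). The coding genes fbxa-140, fbxa-209 and fbxa-94 fell by 3.80, 3.56 and 3.84 on the log2 scale, and the annotated pseudogenes fbxc-46, fbxa-57 and fbxa-124 by 3.94, 3.93 and 3.59. The list's medians, -0.37 and -0.68, were much smaller than the changes of these members.

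**Figure D2:**
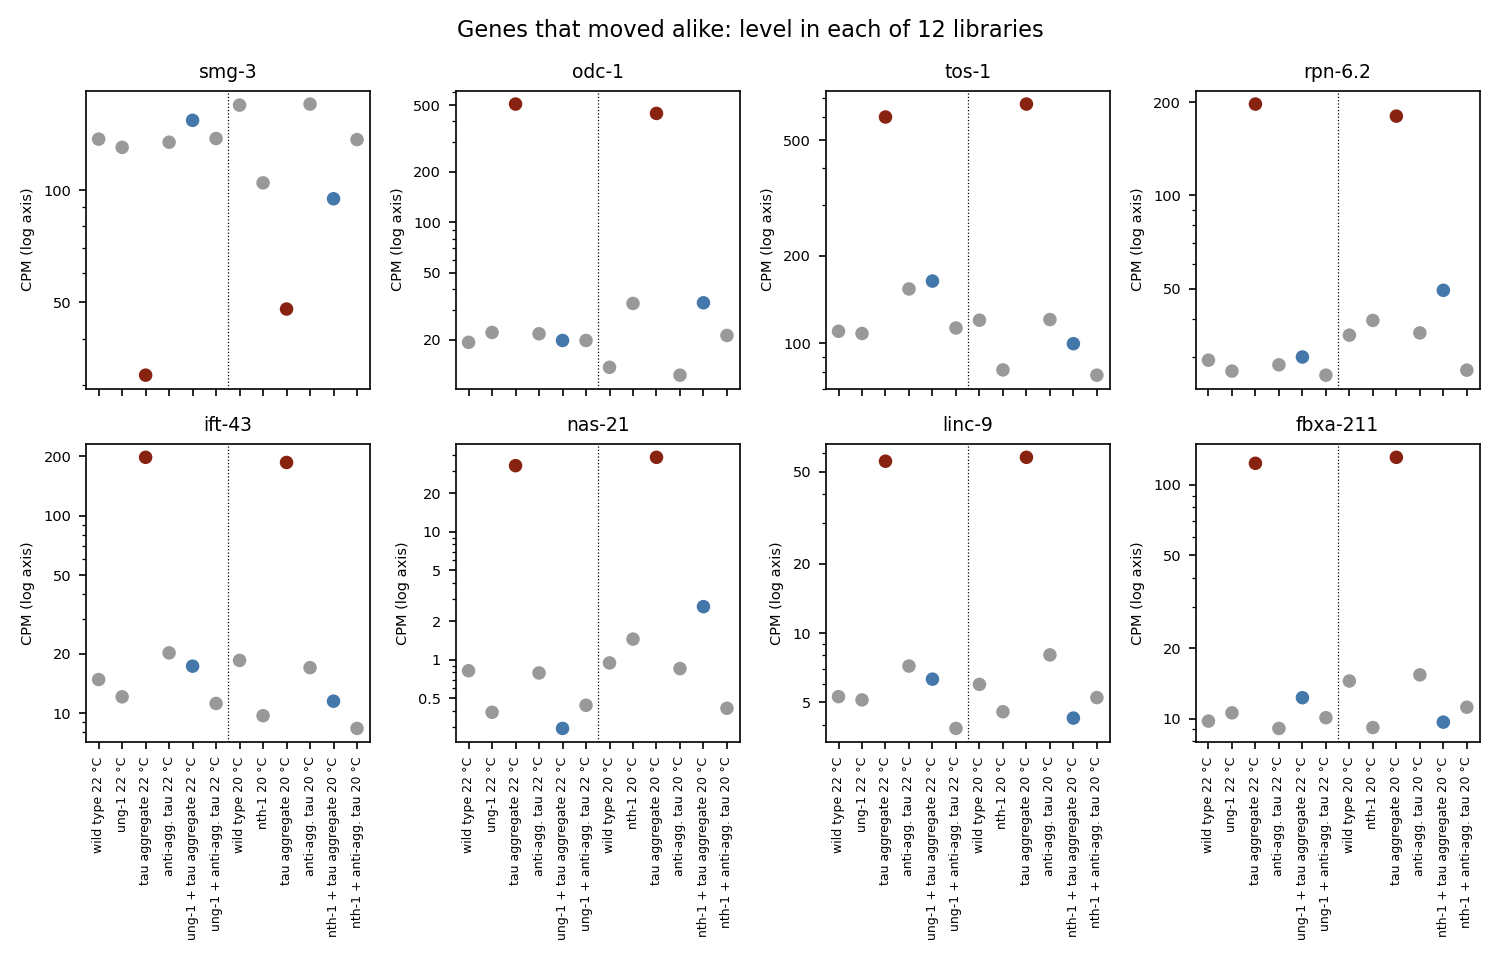
Level of 8 genes that passed the test of the mean of the pairs in each of the 12 libraries, in TMM-scaled CPM on log axes, with 1 point per library, tau aggregate in red, its 2 mutant crosses in blue and the other 8 libraries in grey. The red points of smg-3 are the 2 lowest and those of the other 7 genes the 2 highest.

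Some genes with named functions fell with both losses where no other listed member of their pathway passed. Ornithine decarboxylase, the first enzyme of polyamine synthesis, is encoded by odc-1 (V:6898540-6900223, minus strand). It stood at 507.3 and 19.8 CPM in the ung-1 pair, tau aggregate first, and at 446.2 and 33.2 CPM in the nth-1 pair, with 12 to 32.9 CPM in the other 8 libraries. Its edgeR quasi-likelihood adjusted p was 0.00314, and none of the other 4 measured genes of the pathway passed. The gene smd-1, for S-adenosylmethionine decarboxylase, had ratios of -2.58 and -0.97 (edgeR quasi-likelihood adjusted p = 0.053). Summed over the 5 genes, the level was 1214 and 192.6 CPM in the ung-1 pair and 1078 and 421.0 CPM in the nth-1 pair. The proteasome gene rpn-6.2 (III:8999817-9001999, minus strand) was the only one of 33 measured proteasome genes to pass. It stood at 197.1 and 30.1 CPM in the ung-1 pair and at 180.2 and 49.4 CPM in the nth-1 pair, with 26.3 to 39.5 CPM elsewhere.

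Intraflagellar transport builds the cilia of sensory neurons. Of 22 measured genes 2 (9.09%) fell, beside 0.977% of all genes tested. They were ift-43 (II:5659881-5660786, minus strand) and osm-1 (X:16540674-16551211, plus strand). The gene ift-43 stood at 197.5 and 17.3 CPM in the ung-1 pair and at 186.0 and 11.5 CPM in the nth-1 pair, tau aggregate first. The gene osm-1, which overlaps a gene on the opposite strand, stood at 58.8 and 6.99 CPM and at 63.3 and 9.98 CPM. In the other 8 libraries the ranges were 8.37 to 20.2 CPM for ift-43 and 8.31 to 11.8 CPM for osm-1, so neither overlapped the tau aggregate libraries. The kinesin motor gene osm-3 of the same list had -4.46 in the ung-1 pair and 0.79 in the nth-1 pair and did not pass.

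Other named genes that fell ran from low to moderate levels outside tau aggregate. The astacin protease gene nas-21 (V:11472564-11473899, plus strand) stood at 32.8 and 0.291 CPM in the ung-1 pair and at 38.1 and 2.60 CPM in the nth-1 pair. The gene cng-1, for a channel gated by cyclic nucleotides (V:15025731-15031473, minus strand), stood at 75.1 and 1.12 CPM in the ung-1 pair and at 23.3 and 1.74 CPM in the nth-1 pair. For these 2 genes none of the other 8 libraries passed 2.38 CPM. Of 45 measured long intergenic non-coding RNAs 2 (4.44%) fell, beside 0.977% of all genes tested. They were linc-20, by 3.93 (SE 0.43), and linc-9, by 3.42 (SE 0.36) on the log2 scale. Both cng-1 and linc-20 overlap a gene on the opposite strand. Of 22 Argonaute and RNA-directed polymerase genes ppw-1, which acts in germline RNA interference, fell by 1.35 (SE 0.13), from 394.0 to 144.8 CPM and from 419.1 to 175.7 CPM. The transcription factor gene spe-44, which activates sperm genes, fell by 1.58 (SE 0.22) although most sperm genes went opposite ways in the pairs. The edgeR quasi-likelihood adjusted p-values of these 6 genes ran from 0.0112 to 0.0354.

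Genes higher with both losses were fewer, and of the 45 past 2-fold none passed the test. The small heat shock gene hsp-16.2 (V:1804334-1804957, minus strand) encodes an inducible chaperone. It stood at 2.43 and 10.8 CPM in the ung-1 pair and at 1.00 and 20.1 CPM in the nth-1 pair. It reached 41.8 CPM in nth-1 without tau and 16 CPM in the ung-1 cross with anti-aggregate tau, so it was not high in the aggregate crosses alone. Its mean log2 change was 3.09 (SE 0.90, edgeR quasi-likelihood adjusted p = 0.255). The neighbouring hsp-16.41 and the chaperone gene hsp-70 were also past 2-fold, at 1.87 and 4.0 for hsp-16.41 and at 1.02 and 5.08 for hsp-70. Of 24 measured heat shock genes 20 were positive in the ung-1 pair and 22 in the nth-1 pair, with medians of 0.46 and 0.85. Of all genes tested 49.2% and 52.5% were positive, and of those at 5 CPM 64.6% and 48.2%. With total-count scaling the medians of the heat shock list were 0.17 and 0.66. The same losses without tau gave that list 0.33 and 2.03. The other 4 named genes at the top of the 45 were ribosomal RNA genes or copies of them, and the ribosomal RNA share of the counts was 0.108% and 0.345% in the ung-1 pair and 0.275% and 1.034% in the nth-1 pair.

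**Figure D3:**
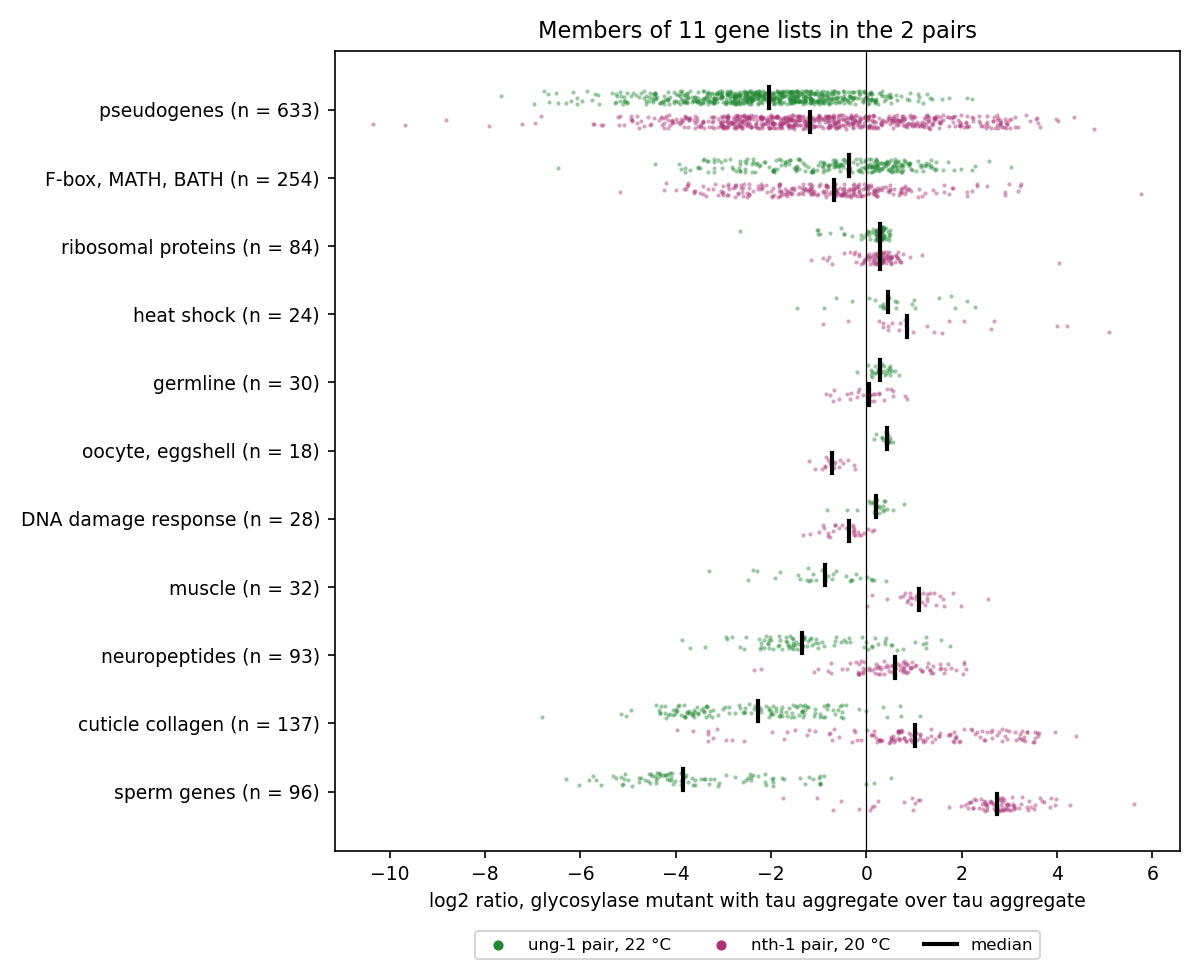
Log2 ratio of each measured member of 11 gene lists in the ung-1 pair (green) and the nth-1 pair (purple), with the median as a black bar and the number of members beside each name. Pseudogenes lay below 0 in both pairs, with medians of -2.05 and -1.18, and sperm genes lay on opposite sides, with medians of -3.84 and 2.74.

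Genes past 2-fold in opposite ways were the larger group at the minimum of 5 CPM. At a minimum of 20 CPM they were not, with 218 in opposite directions and 227 in the same direction. The 742 genes that were lower in the ung-1 pair and higher in the nth-1 pair had median ratios of -3.19 and 2.64. Without the nth-1 cross, 452 of them had a mean under 5 CPM over the other 3 libraries and 290 still reached it. Their median level was 4.48 CPM in tau aggregate and 0.388 CPM in the ung-1 cross at 22 °C, and 5.61 CPM in tau aggregate and 31.8 CPM in the nth-1 cross at 20 °C. The 2 tau aggregate libraries thus stood close together, and the crosses lay on either side of them. In nth-1 worms without tau the median level was 27.5 CPM and in the other 7 libraries it ran from 0.164 to 1.86 CPM. All 742 were also higher in nth-1 than in wild type without tau (median log2 ratio 4.72), and 677 were higher in ung-1 than in wild type without tau (median 1.58). Of the 8266 genes not past 2-fold in both pairs, 3342 were higher in nth-1 and 3763 in ung-1 without tau.

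Across the 9507 genes the nth-1 pair had a Pearson r of 0.75 with nth-1 over wild type without tau, and the ung-1 pair had -0.62 with ung-1 over wild type without tau. With the other mutation without tau, the nth-1 pair had 0.53 and the ung-1 pair -0.63, so the relation was not particular to the matching mutation. None of these comparisons shares a library with its partner, genes are not independent replicates, and no test was made.

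A large share of the measured sperm genes lay in this group. Worm hermaphrodites make sperm before adulthood and oocytes afterwards, so both kinds of transcript vary with stage. Of the 70 sperm genes that reached a mean of 5 CPM, 61 (87.1%) were lower in the ung-1 pair and higher in the nth-1 pair. The share over all genes at that mean was 7.80%. The nth-1 cross counts towards the mean, so a gene can reach it through its level there, and the share is a description. Of the 96 measured, 93 had opposite signs, with medians of -3.84 and 2.74 (-3.81 and 2.74 with 0 counts at the floor of 3). Summed over the list the level was 1041 CPM in tau aggregate and 264.4 CPM in the ung-1 cross, and 1409 CPM in tau aggregate and 7903 CPM in the nth-1 cross. It was 7355 CPM in nth-1 without tau and 257.8 to 704.9 CPM in the other 7 libraries. The nth-1 cross and nth-1 without tau were the 2 highest, and the tau aggregate libraries came next.

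The single sperm genes given here were named for their large opposite ratios, so their direction is set by that choice. The gene spch-1 (IV:10110818-10111541, minus strand), for a protein of sperm chromatin, stood at 13.6 and 0.485 CPM in the ung-1 pair and at 17.9 and 204.3 CPM in the nth-1 pair, tau aggregate first. The gene spe-18, needed for making sperm, stood at 6.84 and 0.485 CPM in the ung-1 pair and at 9.50 and 149.7 CPM in the nth-1 pair. The counts behind 0.485 CPM were 10 in each case. The major sperm protein gene msp-3, of a family with near-identical copies, had 5 counts in the ung-1 cross and 2227 in the nth-1 cross.

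Cuticle collagens, which form the worm's outer layer and are made in waves around each moult, went the same way. Of the 81 that reached a mean of 5 CPM, 42 (51.9%) were lower in the ung-1 pair and higher in the nth-1 pair. The share over all genes at that mean was 7.80%, and here too a gene can reach the mean through the nth-1 cross. Of 137 measured, 109 had opposite signs, beside 56.4% of all genes tested. The medians were -2.28 and 1.02. Their summed level was 25780.0 CPM in tau aggregate and 7832 CPM in the ung-1 cross, and 28228 CPM in tau aggregate and 54290.3 CPM in the nth-1 cross. Without tau it was 51789 CPM in nth-1 and 13792 CPM in ung-1. A pair of collagens, col-103 and col-42, moved in the ung-1 pair alone, at -3.54 and -3.60 there and at 0.16 and 0.20 in the nth-1 pair. The strongly opposite col-133 (IV:14098325-14099356, minus strand) stood at 6.58 and 0.291 CPM in the ung-1 pair and at 63.6 and 743.2 CPM in the nth-1 pair.

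Muscle, neuropeptide and oocyte genes showed smaller opposite ratios, read here against the 56.4% of all genes with opposite signs. Of 32 muscle genes 27 had opposite signs, with medians of -0.87 and 1.10. The body wall myosin gene unc-54 stood at 1041 and 597.1 CPM in the ung-1 pair and at 1263 and 3857 CPM in the nth-1 pair, and nth-1 without tau held 3773 CPM. Of 93 neuropeptide genes 72 had opposite signs, with medians of -1.35 and 0.60, while their sum was 639.6 and 627.6 CPM in the ung-1 pair and 638.3 and 1016 CPM in the nth-1 pair. The 29 neuron genes had medians of -0.64 and 0.74, with 22 of opposite sign. Their sum was 761.2 and 810.1 CPM in the ung-1 pair and 760.0 and 775.9 CPM in the nth-1 pair, so the sums did not follow the medians.

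All 18 oocyte and eggshell genes were higher in the ung-1 pair and lower in the nth-1 pair, with medians of 0.43 and -0.72 (0.14 and -0.90 with total-count scaling). The yolk receptor gene rme-2 lay at 0.45 and -0.59 and the eggshell gene cpg-2 at 0.41 and -0.55. Summed over the list, the level was 10357 CPM in tau aggregate and 13518 CPM in the ung-1 cross, and 10209 CPM in tau aggregate and 6483 CPM in the nth-1 cross. The sperm and oocyte lists thus differed in direction within each pair.

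**Figure D4:**
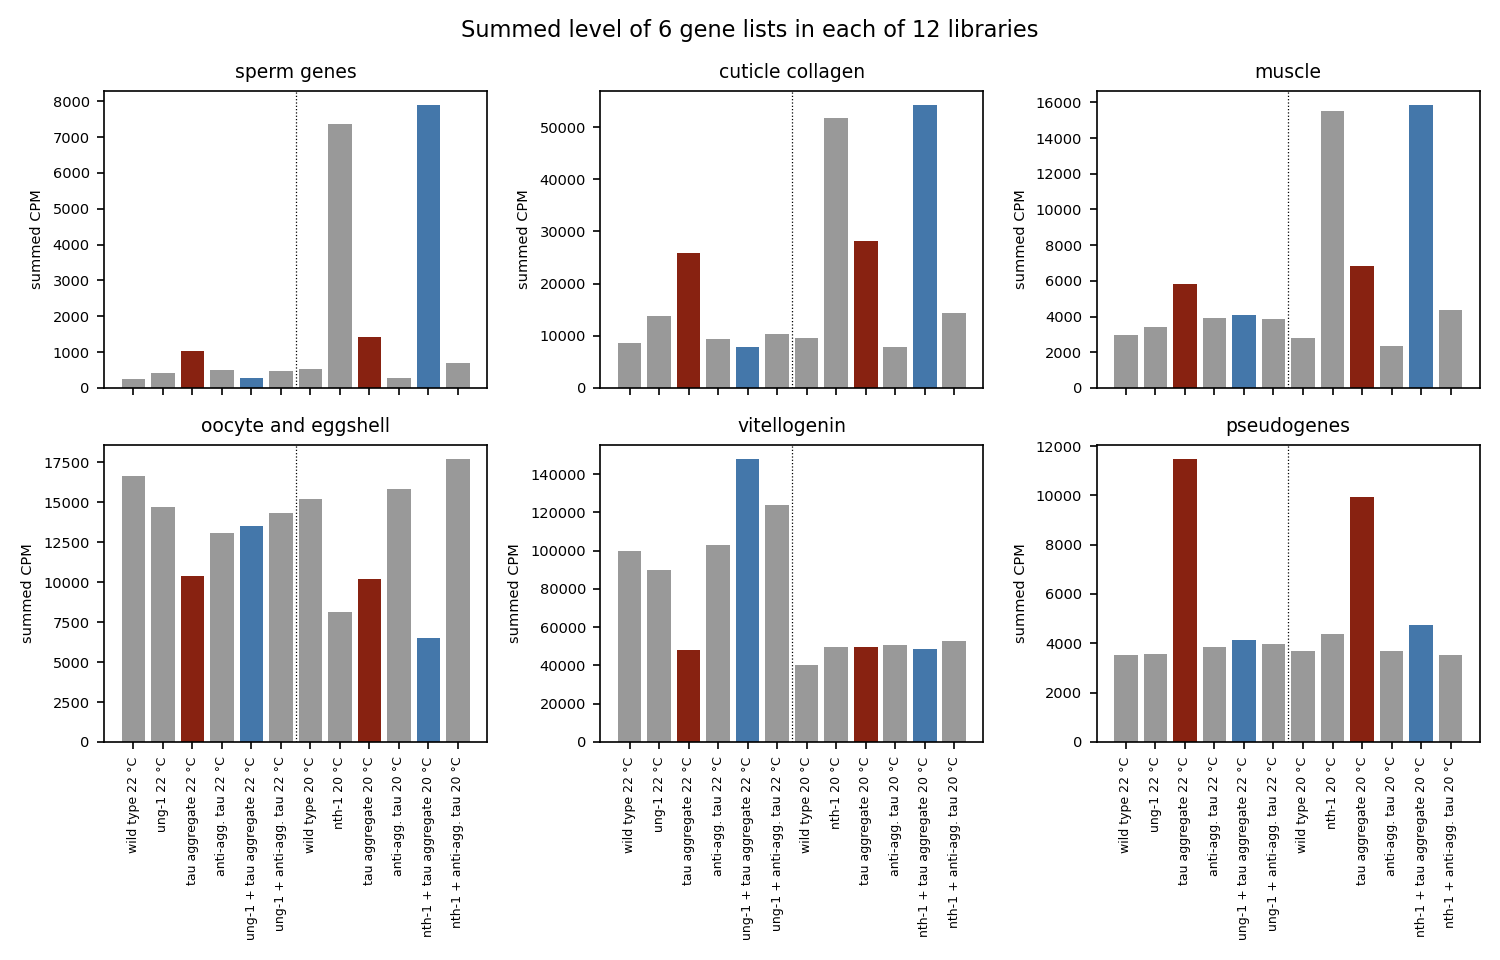
Summed TMM-scaled CPM of 6 gene lists in each of the 12 libraries, as bars from 0, with tau aggregate in red, its 2 mutant crosses in blue and the other 8 libraries in grey. Sperm, collagen and muscle sums were highest in nth-1 without tau and in its cross with tau aggregate, and pseudogene sums were highest in the 2 tau aggregate libraries.

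Genes of DNA repair had small ratios. Of 28 DNA damage response genes outside base excision repair, 22 had opposite signs, beside 56.4% of all genes, with medians of 0.20 and -0.36. The first is close to the 0.18 of genes at 5 CPM. For 8 base excision repair genes, with the mutated ung-1 and nth-1 included, the medians were 0.23 and -0.50. With total-count scaling the ung-1 pair medians of both lists turned negative, at -0.09 and -0.05. The ligase gene lig-1 stood at 137.7 and 186.5 CPM in the ung-1 pair and at 133.2 and 97.4 CPM in the nth-1 pair. No member of either list passed a test.

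The other orientation, higher in the ung-1 pair and lower in the nth-1 pair, held 44 genes. They included 3 of the 30 cytochrome P450 genes and 1 of the 55 glucuronosyl and glutathione transferase genes at 5 CPM, beside 0.463% of all such genes. The opposite orientation held 10 (18.2%) of those transferase genes and 0 of the P450 genes, beside 7.80% of all. The median level of the 44 genes was 10.2 and 32.7 CPM in the ung-1 pair and 11.2 and 2.94 CPM in the nth-1 pair. It was 29.6 CPM in anti-aggregate tau at 22 °C, next to the ung-1 cross. The long non-coding RNA tts-1 (X:1504131-1504841, minus strand), abundant in long-lived insulin receptor mutants of the worm, stood at 104.9 and 848.4 CPM in the ung-1 pair and at 159.3 and 23.4 CPM in the nth-1 pair. Its other 8 libraries ran from 14.5 CPM to 363.3 CPM, the latter in anti-aggregate tau at 22 °C.

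The cytochrome P450 gene cyp-13A5 (II:9798277-9800362, minus strand) stood at 4.24 and 32.0 CPM in the ung-1 pair and at 10.9 and 0.992 CPM in the nth-1 pair. The metallothionein gene mtl-1 (V:6691371-6691863, minus strand), for a metal-binding protein, stood at 2.87 and 29.1 CPM in the ung-1 pair and at 3.19 and 0.558 CPM in the nth-1 pair. The lipase gene lipl-1 (V:12919986-12921692, plus strand) stood at 10.2 and 69.8 CPM and at 6.38 and 1.30 CPM. In each of these 3 genes the ung-1 cross and anti-aggregate tau at 22 °C were the 2 highest libraries. The lysozyme gene ilys-3, the glucuronosyl transferase gene ugt-18 and the P450 gene cyp-34A9 had the same orientation, with ratios of 1.83 and -5.45, of 1.70 and -4.79, and of 2.16 and -1.53.

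**Figure D5:**
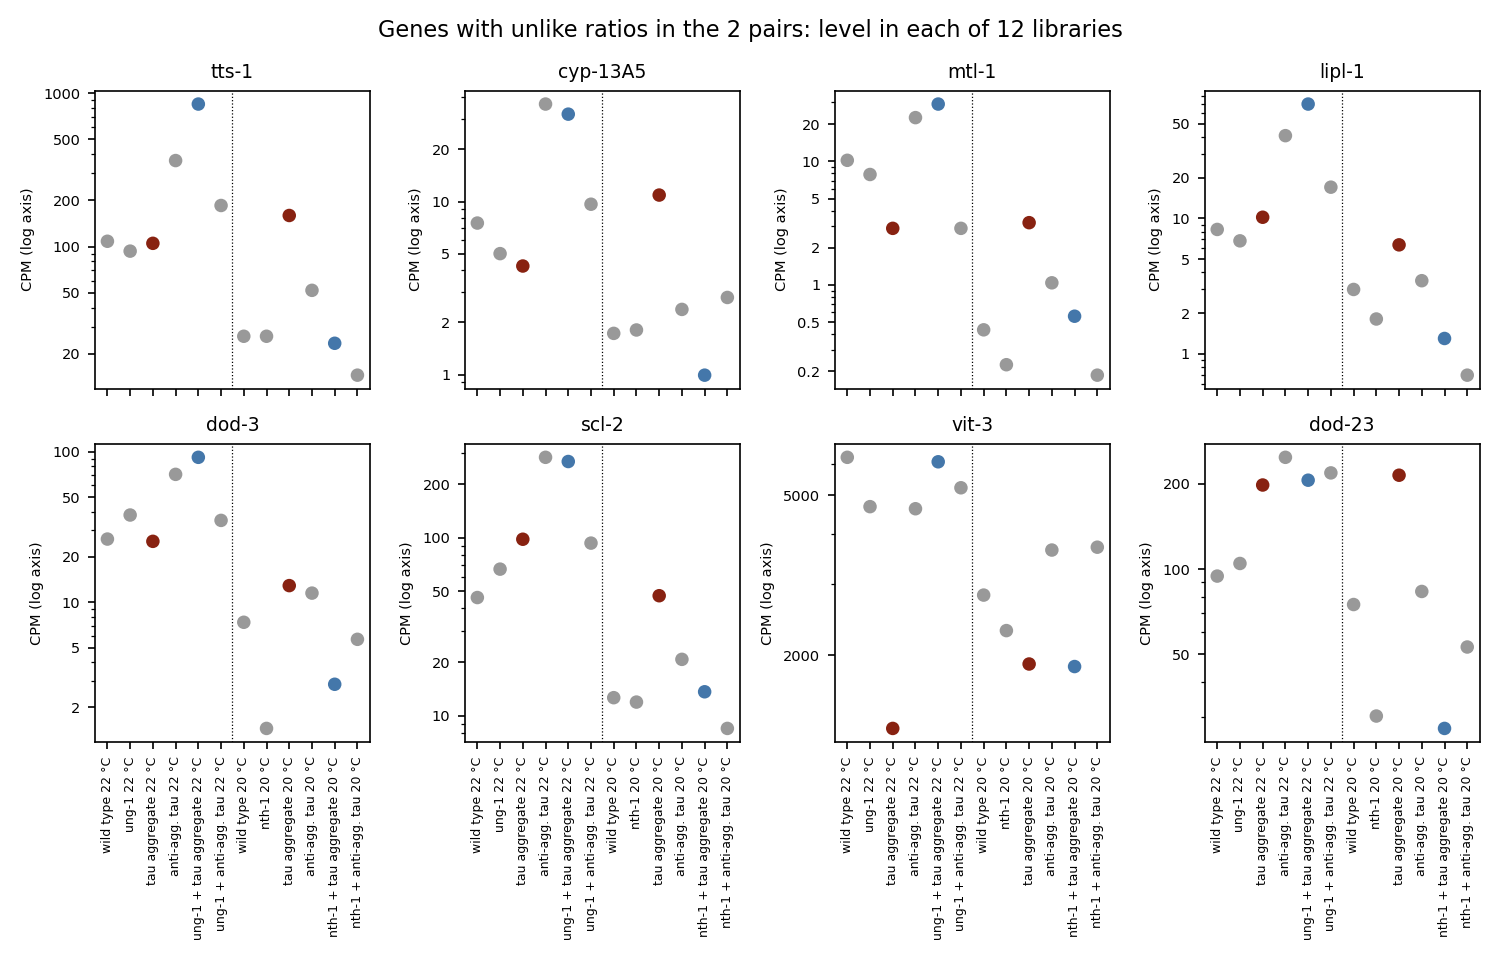
Level of 8 genes with unlike ratios in the 2 pairs in each of the 12 libraries, in TMM-scaled CPM on log axes, with 1 point per library, tau aggregate in red, its 2 mutant crosses in blue and the other 8 libraries in grey. For tts-1 the ung-1 cross stood at 848.4 CPM and the nth-1 cross at 23.4 CPM, on either side of the tau aggregate libraries.

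The difference between the pairs was tested in the fit with 1 more coefficient. No gene passed (0.0% of 15245, edgeR quasi-likelihood test, smallest adjusted p = 0.657), with 676 (4.43%) at an unadjusted p under 0.05. By chance alone 762 would be so. DESeq2 called 71 genes and limma voom 0. Of those 676 genes 591 had opposite signs in the pairs, beside 56.4% of all genes tested, and a large difference favours opposite signs. The 676 included 33 of the 44 genes (75.0%) higher in the ung-1 pair and lower in the nth-1 pair, and 89 of the 742 (12%) of the other orientation. Both groups were picked for ratios past 2-fold in opposite directions, which is the quantity tested. Their shares are thus in part set by that choice. The difference of tts-1 was 5.79 (SE 0.93, unadjusted p = 0.000733 by the edgeR quasi-likelihood test) and that of cyp-13A5 was 6.39 (SE 1.19, unadjusted p = 0.00164). Those of spch-1 and spe-18 had larger errors, at -7.90 (SE 4.95) and -7.44 (SE 4.20). Whether the difference was larger than in the other tau states was tested too, and no gene passed (0.0%, edgeR quasi-likelihood test), with 155 (1.02%) at an unadjusted p under 0.05. For that difference DESeq2 called 7 and limma voom 0. In simulated data the test of the difference between the pairs recovered none of the changes put in, at any size tried. With its 3 residual degrees of freedom a count of 0 therefore does not show that the losses act alike.

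Some genes moved in 1 pair and stayed within 1.2-fold in the other. Past 4-fold, 10 genes were higher and 26 lower in the ung-1 pair alone, and 10 were higher and 22 lower in the nth-1 pair alone. Yolk protein genes, expressed in the intestine, led the first group. The gene vit-3 (X:3567355-3572549, minus strand), a near-identical copy of its neighbours, stood at 1313 and 6060.3 CPM in the ung-1 pair and at 1900.0 and 1872.5 CPM in the nth-1 pair. At 22 °C the tau aggregate library was the lowest of 6 and at 20 °C both libraries of the pair were below the other 4. All 6 vitellogenins were positive in the ung-1 pair (median 1.80), and their median in the nth-1 pair was -0.02. In the nth-1 pair alone dod-23 (II:8398161-8399164, minus strand), named for lying downstream of the transcription factor DAF-16, stood at 214.5 and 27.4 CPM, beside 198.1 and 206.0 CPM in the ung-1 pair. It was at 30.3 CPM in nth-1 without tau, so the cross lay near the mutant without tau.

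Whether the losses acted otherwise in the tau aggregate strain than without tau was tested as the difference of the 2 mean effects. Only 2 genes passed, both lower (0.0131% of 15245, edgeR quasi-likelihood test), with none higher (0.0%) and 1783 (11.7%) at an unadjusted p under 0.05. They were odc-1 and Y73B3A.18 (X:59366-60750, plus strand), a pseudogene named after its values were seen. The latter stood at 498.6 and 9.51 CPM in the ung-1 pair and at 484.3 and 10.4 CPM in the nth-1 pair, and no other library exceeded 11.8 CPM. All 149 genes that fell with both losses had negative differences here, and 148 had an unadjusted p under 0.05. The contrasts share the 4 aggregate libraries, so this is no separate evidence. The count was 0 to 1 without ung-1, nth-1, either wild type, either tau aggregate library or either mutant aggregate library, and 163 and 152 without the ung-1 and nth-1 crosses with anti-aggregate tau.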

How the data were processed

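RNA of whole worms was sequenced in 12 libraries. Each deposited file holds whole-number counts per gene, not normalised by the authors as far as the values show. Reads were aligned with HISAT2 to WBcel235 and edgeR 3.22.5 was used, per the submitters' processing notes. The sources used here name neither the counting program nor its use of strand. Of 46589 identifiers 46180 matched the Ensembl 115 annotation, and the rest held 0.228% of counts. The quasi-likelihood test of edgeR 4.0.16 (R 4.3.3) was run on TMM-scaled counts that passed the default low-count filter, with Benjamini-Hochberg adjustment over 15245 genes at 0.05. The fit held background, tau state and loss by tau state (4 residual degrees of freedom), plus 1 coefficient for the difference of the pairs (3). With no replicates, the spread behind p-values is the background by tau state interaction plus the noise of single libraries. Both fits were tested on simulated data, where that of the mean recovered mainly large changes and that of the difference recovered none. Single-library log2 ratios used TMM-scaled CPM with a prior count of 2, and the total counts ran from 15124127 to 35204808 per library. Which libraries share a temperature comes from the labels. The members and the 36 gene lists were chosen with earlier results of these data known. Genes were named by rule among those that reached a mean of 5 CPM and have no clone name: the 12 with the largest smaller pair ratio per direction, 6 where the test was not passed, 5 in 1 pair only by level, and up to 4 per list. The genes rme-2, hsp-70, smg-1, smg-2, smd-1, rpl-7A, rpl-12 and osm-3 were added after their values were seen. DESeq2 1.42.0 and limma voom 3.58.1, other scalings, filters, thresholds and library sets were tried.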

Additional observations from a re-analysis of the deposited data

Results flagged for a closer look

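The effect of glycosylase loss differed between tau aggregate worms and worms without tau for 2 genes by a test of that difference (edgeR quasi-likelihood test, adjusted p = 0.00693 for each), at a log2 difference of -4.95 for odc-1 and -5.91 for the pseudogene Y73B3A.18.

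The sperm list had a median log2 ratio of -3.84 in the ung-1 pair and 2.74 in the nth-1 pair, and the cuticle collagens had -2.28 and 1.02. The groups went opposite ways with 1 library on each side, and the difference between the lists' medians was not tested.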

How the results depend on the processing

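For the mean of the pairs the 150 genes called became 317 with total counts, 255 over genes that reached a mean of 5 CPM, 661 by DESeq2, 292 by limma voom and 633 without the anti-aggregate tau libraries. In the 4 libraries alone it was 0 with temperature as replicate block and 0 with no replicate block (edgeR quasi-likelihood test, 599 and 908 at an unadjusted p under 0.05). Leaving out 1 library gave 0 to 478. For the loss effect in aggregate worms minus that without tau the 2 genes became 23 with total counts, 24 with no filter, 45 with the 5 CPM minimum, 385 by DESeq2 and 28 by voom, and 0 to 163 with 1 library left out. The difference of the pairs gave 71 by DESeq2 (39 higher, 32 lower) and its comparison with the other tau states 7. The count of genes past the threshold in the same direction, 455, became 262 at 3-fold, 838 at 1.5-fold, 772 at a minimum of 1 CPM and 227 at 20 CPM. The count in opposite directions, 786, became 544 at 3-fold, 1246 at 1.5-fold, 1658 at 1 CPM and 218 at 20 CPM. The causes were not tested. Total counts moved the median of all genes for the mean of the pairs from 0.004 to -0.231. Over 23 alternatives odc-1 passed in 18 (edgeR, DESeq2 or voom adjusted p from 1.84e-63 to 0.575) and smg-3 in 14 (6.34e-11 to 0.972). Among the genes reported as falling, nas-21 passed in 10 of 23, rpl-30 in 9 of 23, spe-44, fbxa-57 and fbxa-209 in 10 of 22 each, and fbxa-94 in 8 of 22. Low counts limit genes near 0 in the ung-1 cross, such as most sperm genes. Counting intervals cover counting error only.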
